A study of Mus musculus with 45 samples.

Results

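The spleens of mice bearing 4T1 mammary tumors were compared with those of tumor-free control mice, 3 libraries against 3, over the 18505 of 55367 gene symbols that had more than 10 counts summed over these 6 libraries. A gene was called when its adjusted p was below 0.1 and it differed more than 2-fold. By that rule 2021 genes rose and 2037 fell in the 4T1 spleens. Several of the genes that rose furthest encode granule proteins of immature neutrophils or stefin protease inhibitors, and genes of mature neutrophils, red cell precursors, platelets and dividing cells rose as well. Genes of B cells, T cells, natural killer cells and marginal zone macrophages fell. The numbers called in both directions depended on how the libraries were scaled. When each library was scaled by its total instead, 1369 genes were called higher and 3249 lower.

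4T1 is an aggressive mouse mammary carcinoma line that metastasizes spontaneously to lung and other organs. Its sister lines 4T07, which disseminates without forming overt nodules, and 67NR, which stays at the primary site, come from the same BALB/c tumor. All 12 spleens of the series, 3 per group, came from female Balb/c mice, and no allele or transgene is named in the labels. The 4T1, 4T07 and 67NR mice had received 2000000 cancer cells orthotopically in PBS, and tissue was taken 14 days later. Control mice had no tumor cells and were sampled at the same time, and all animals carried implanted porous polymer scaffolds. Each tumor group rests on 1 cell line. The labels do not say whether the 3 libraries of a group are 3 animals, although the study's figure legends give 3 mice per condition. The p-values measure the spread between these libraries. RNA was read from the 3′ end of polyadenylated transcripts.

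The spleen filters blood in its red pulp, where macrophages recycle the iron of old red cells, and holds B and T cells in its white pulp, which is bordered by marginal zone macrophages. In rodents the red pulp can also make blood cells. A neutrophil precursor fills its granules in order: azurophil (primary) granules at the promyelocyte stage, specific (secondary) granules at the myelocyte stage, and gelatinase granules later, after which the mature cell expresses chemokine and colony-stimulating factor receptors. The growth factor G-CSF, read by the receptor Csf3r, drives this series. Expansion of granulocytes in blood and spleen is a known feature of 4T1-bearing mice.

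Library totals were 4334104 to 5149589 counts in the control spleens and 4083839 to 4376511 in the 4T1 spleens, so that 3 counts were worth 0.583 to 0.735 CPM (counts per 1000000 counts of the library). The 4T1 libraries detected fewer symbols, 20563 to 21137 against 23110 to 23595. Their 20 most abundant genes took a larger share of the counts, 28.2 to 28.5% against 24.6 to 26.3%. Mitochondrially encoded genes took a smaller share, 6.15 to 6.83% against 8.40 to 10.0%. Genes of exocrine pancreas, which lies against the spleen, set 2 libraries apart, the second control library and the third 4T1 library. Without those 2 libraries 1605 genes were called higher and 1235 lower, and the counts were 7 of 7 azurophil, 13 of 15 specific granule, 21 of 24 mature neutrophil, 25 of 32 erythroid and 23 of 30 mitosis genes higher, and 16 of 26 B cell, 11 of 27 T cell and 3 of 6 marginal zone macrophage genes lower. The spleen transcription factor gene Tlx1 was read in every library, at 33.2, 33.0 and 39.0 CPM in the control spleens and 16.3, 24.2 and 11.0 CPM in the 4T1 spleens. 

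Under the main scaling (TMM, trimmed mean of M-values), 10.9% of the tested genes were called higher and 11.0% lower, 21.9% in all, and the median log2 fold change over all genes was -0.067. When each library was scaled by its total instead, the median moved to -0.31, with 1369 genes called higher and 3249 lower, so the share of higher genes among the calls went from 49.8% to 29.6%. Calls leaned upward among abundant genes, with 515 of 3437 genes at 50 CPM or more called higher and 191 lower. Among the 2989 genes under 1 CPM, 131 were called higher and 409 lower. The CPM values of the groups did not overlap for 15.8% of genes in the higher direction and 31.9% in the lower. In bulk tissue, fewer cells of a type and less RNA per cell cannot be told apart, and a fall in one gene's share of a library can accompany a rise of others. Unless another comparison is named, every log2 value below is the edgeR quasi-likelihood estimate for 4T1 minus control spleens, with Benjamini-Hochberg adjusted p-values over all 18505 genes. The SE is the absolute log2 value divided by the square root of the F statistic of that test. It was not estimated directly and is unreliable for values near 0. Where another setting ended the call of a named gene, the value it gave stands in brackets, the log2 value where that was under 2-fold and the adjusted p otherwise.

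**Figure D1:**
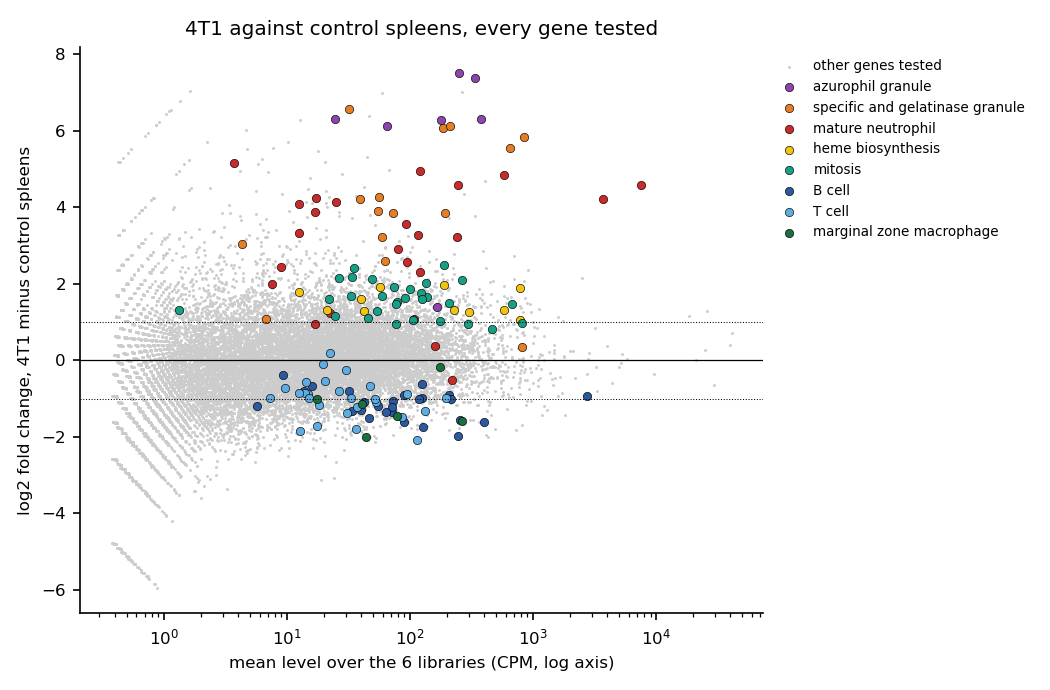
Each point is one of the 18505 tested genes, with the mean level over the 6 libraries (CPM, log axis) on the x axis and the log2 fold change, 4T1 minus control spleens, on the y axis; dotted lines mark a 2-fold difference and colored points are members of 8 gene lists. Neutrophil granule genes lie far above 0, with a list median of 6.30 for the azurophil genes, and B cell genes lie below it, with a list median of -1.13.

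All 7 measured azurophil granule genes of 8 listed rose, with a median log2 fold change of 6.30 against -0.067 over all genes. Their summed level was 104 to 151 CPM in the control spleens and 1261 to 3458 CPM in the 4T1 spleens. Mpo, the myeloperoxidase that makes hypochlorous acid, was at 9.71, 15.7 and 8.41 CPM in the control spleens and 976, 374 and 892 CPM in the 4T1 spleens, and rose by 6.31 log2 units (SE 0.39, adjusted p = 1.72e-07). Ctsg, the serine protease cathepsin G, was at 3.30, 4.38 and 1.94 CPM in the control spleens and 740.2, 203 and 542 CPM in the 4T1 spleens. The lowest 4T1 library lay far above the highest control, and Ctsg rose by 7.52 log2 units (SE 0.47, adjusted p = 1.72e-07), the furthest of the named genes. Prtn3, proteinase 3, went from 5.05, 7.61 and 1.72 CPM to 712, 294 and 992 CPM and rose by 7.38 log2 units (SE 0.53, adjusted p = 3.30e-07). Elane, neutrophil elastase, went from 4.47, 8.08 and 3.88 CPM to 475, 187 and 399.9 CPM and rose by 6.27 log2 units (SE 0.43, adjusted p = 2.97e-07). The second 4T1 library was the lowest of the 3 for each of these 4 genes, and still exceeded every control. Prss57, a granule serine protease of the same kind, rose by 6.30 log2 units (SE 0.45, adjusted p = 3.30e-07), and Ms4a3, a membrane protein of granulocyte-monocyte progenitors, rose by 6.14 log2 units (SE 0.53, adjusted p = 1.59e-06). Serpinb1a, an inhibitor of these proteases, changed least of the 7, from 127, 101 and 85.4 CPM to 318, 126 and 246 CPM, with overlapping groups, and rose by 1.39 log2 units (SE 0.27, adjusted p = 0.00109). Azu1, the last listed, was not tested.

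The promoters of these protease genes and of Mpo share a short motif. Stretches of 110 bases upstream of the start site are shown for the 4 azurophil genes whose RefSeq promoter (GRCm38.p6, 250 bases before to 50 after the start) holds AGGAAGT, the core bound by ETS factors such as PU.1, on either strand. Each is written 5′ to 3′ on the strand of its gene, with the match in capitals.
Mpo (chr11:87793534-87793643, plus strand): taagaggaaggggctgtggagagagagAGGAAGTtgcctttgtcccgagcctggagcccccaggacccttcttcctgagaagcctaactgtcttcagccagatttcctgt
Elane (chr10:79886176-79886285, plus strand): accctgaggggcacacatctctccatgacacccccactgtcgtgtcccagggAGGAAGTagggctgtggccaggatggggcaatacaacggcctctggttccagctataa
Prtn3 (chr10:79879521-79879630, plus strand): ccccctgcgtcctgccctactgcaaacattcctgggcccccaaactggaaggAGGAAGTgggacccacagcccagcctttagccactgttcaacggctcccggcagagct
Ctsg (chr14:56102715-56102824, minus strand): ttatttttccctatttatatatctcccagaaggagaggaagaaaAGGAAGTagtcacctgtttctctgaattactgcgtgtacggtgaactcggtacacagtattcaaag
Among the 5 azurophil genes with a listed promoter, AGGAAGT was found in 4, against 10.7% of all 27025 symbols. It was also found in 5 of 13 specific granule genes. Among lists that fell, it stood in 8 of 16 T cell and 5 of 17 B cell promoters, so the match was not particular to genes that rose. In all 16 motifs were searched in 12 lists, on both strands, and the pairs of motif and list shown here and below were picked after the counts were seen. A match is a description and not a bound site.

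Of 15 tested specific and gelatinase granule genes, 14 rose, and the list median was 3.91 on the log2 scale. The summed level was 801 to 1081 CPM in the control spleens and 2698 to 7200.3 CPM in the 4T1 spleens. Ngp, neutrophilic granule protein, was at 33.4, 47.3 and 23.7 CPM in the control spleens and 2239, 668 and 2064 CPM in the 4T1 spleens, and rose by 5.83 log2 units (SE 0.43, adjusted p = 4.07e-07). Camp, the cathelicidin antimicrobial peptide precursor, went from 47.2, 36.5 and 12.7 CPM to 1541, 429 and 1838 CPM and rose by 5.56 log2 units (SE 0.59, adjusted p = 7.82e-06). Ltf, lactoferrin, went from 7.57, 7.38 and 4.53 CPM to 488, 143 and 471 CPM and rose by 6.07 log2 units (SE 0.43, adjusted p = 3.30e-07). All 3 genes had their lowest 4T1 value in the second library, above the highest control. Lcn2, the siderophore-binding lipocalin, was at 7.19, 9.23 and 5.17 CPM in the control spleens and 579, 176 and 501 CPM in the 4T1 spleens, and rose by 6.12 log2 units (SE 0.42, adjusted p = 2.97e-07). Cd177, a surface glycoprotein of neutrophils, was at 1.55, 0.461 and 0.216 CPM in the control spleens and 72.4, 25.0 and 92.1 CPM in the 4T1 spleens, and rose by 6.56 log2 units (SE 0.57, adjusted p = 1.59e-06). The exception was Lyz2, the lysozyme gene shared with macrophages and monocytes, at 911, 766 and 649 CPM in the control spleens and 1036, 611 and 865 CPM in the 4T1 spleens, with overlapping groups and a log2 difference of 0.36 (SE 0.22, adjusted p = 0.22).

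Of 24 tested mature neutrophil genes, 21 rose, and the list median was 3.30 on the log2 scale. Summed, they were at 1656 to 2421 CPM in the control spleens and 13391 to 31721 CPM in the 4T1 spleens. S100a8, one chain of the calcium-binding protein calprotectin, was at 668, 927 and 538 CPM in the control spleens and 17957, 7025 and 17621 CPM in the 4T1 spleens, and rose by 4.58 log2 units (SE 0.37, adjusted p = 1.04e-06). Its partner chain S100a9 was at 417, 599 and 333 CPM in the control spleens and 9581, 3801 and 7608 CPM in the 4T1 spleens, and rose by 4.21 log2 units (SE 0.34, adjusted p = 9.85e-07). The lowest 4T1 library exceeded the highest control several-fold for both chains. Il1b, which encodes interleukin 1 beta, went from 44.1, 51.2 and 44.6 CPM to 198, 219 and 172 CPM and rose by 2.32 log2 units (SE 0.15, adjusted p = 2.14e-07). Ly6g, the surface antigen used to mark mouse neutrophils, went from 8.16, 11.5 and 7.33 CPM to 308, 99.2 and 287 CPM and rose by 4.94 log2 units (SE 0.39, adjusted p = 8.23e-07). Retnlg, a resistin-like secreted protein, rose by 3.21 log2 units (SE 0.29, adjusted p = 2.21e-06), Wfdc21 rose by 4.85 log2 units (SE 0.45, adjusted p = 2.49e-06), and Wfdc17, a whey acidic protein domain gene, rose by 4.59 log2 units (SE 0.30, adjusted p = 1.98e-07). CPM values of the groups did not overlap for 22 of the 24 in the higher direction and for 1 in the lower, which was not called. Of the other uncalled members, G0s2 differed by 0.96 (SE 0.30, adjusted p = 0.0242) and Sorl1 by 0.38 (SE 0.14, adjusted p = 0.0538), both under 2-fold.

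The stefin A cluster on mouse chromosome 16 encodes near-identical inhibitors of cysteine proteases, and reads of one copy may have been counted for another, so single members are uncertain. All 7 tested members of 11 listed rose, with a median of 6.03. Stfa2 was at 1.55, 1.62 and 0 CPM in the control spleens and 175, 51.2 and 125 CPM in the 4T1 spleens, and rose by 7.000 log2 units (SE 0.69, adjusted p = 4.07e-06). Stfa3 went from 1.55, 1.15 and 1.08 CPM to 133, 51.4 and 88.7 CPM and rose by 6.38 log2 units (SE 0.63, adjusted p = 4.41e-06). Cstdc5 rose by 7.02 log2 units (SE 0.60, adjusted p = 1.29e-06), and Cstdc4 rose by 4.98 log2 units (SE 0.37, adjusted p = 4.18e-07). Cstdc6 and Stfa1 had almost no control counts. Cstdc6 had 2 counts over the control libraries and 119 over the 4T1 libraries, a ratio of 66.5 (95% exact interval 18.0 to 556), and Stfa1 had 1 and 14, a ratio of 15.7 (95% exact interval 2.38 to 662). These intervals cover counting error only. Stfa1 missed the rule without the 2 libraries rich in pancreas transcripts (adjusted p = 0.103) or the first 4T1 library (adjusted p = 0.112).

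**Figure D2:**
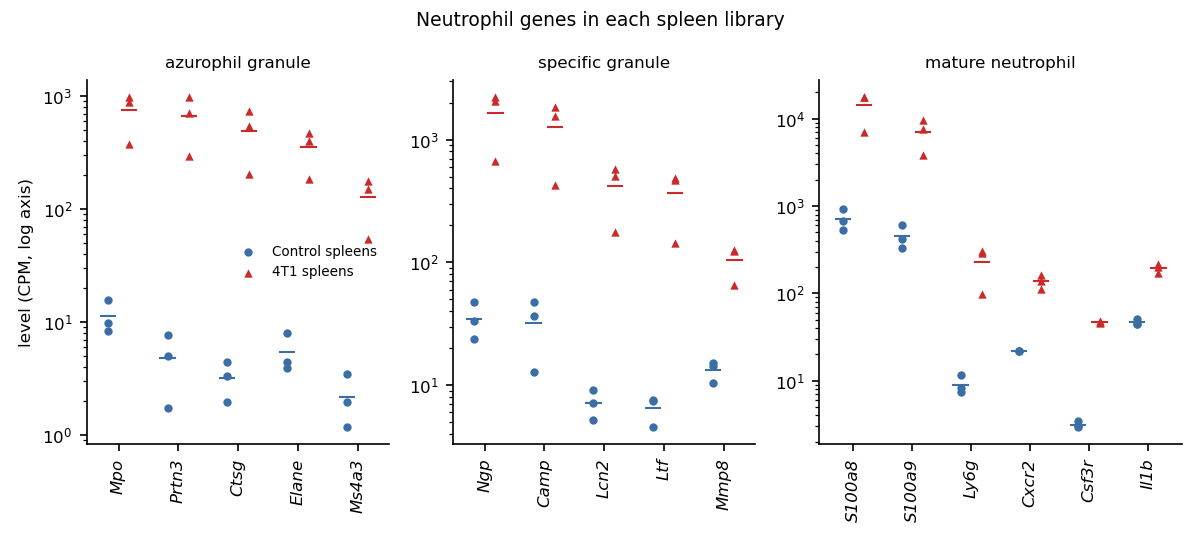
Level of 16 neutrophil genes (CPM, log axis) in each library, with blue circles for the 3 control spleens, red triangles for the 3 4T1 spleens and short lines for group means; the panels hold azurophil granule, specific granule and mature neutrophil genes. For Mpo the control points lie between 8.41 and 15.7 CPM and the 4T1 points between 374 and 976 CPM.

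Of the signals that drive granulocyte production, the receptors were measured and the growth factors mostly were not. Csf2, Csf3, Il3 and Il6 stayed at or below 10 counts over the 6 libraries and were not tested. Csf3r, the G-CSF receptor, was at 2.91, 3.00 and 3.45 CPM in the control spleens and 45.8, 48.5 and 47.1 CPM in the 4T1 spleens, and rose by 4.15 log2 units (SE 0.20, adjusted p = 1.60e-08). Its groups were tight and far apart. Cxcr2, the chemokine receptor that draws mature neutrophils out of marrow, went from 21.9, 21.7 and 21.8 CPM to 163, 112 and 139 CPM and rose by 2.91 log2 units (SE 0.21, adjusted p = 3.30e-07). Cxcr4, which retains cells in marrow, rose by 1.02 log2 units (SE 0.24, adjusted p = 0.00476), and the receptor chains Csf2ra and Csf2rb rose by 1.36 log2 units (SE 0.20, adjusted p = 1.16e-04) and by 1.96 log2 units (SE 0.20, adjusted p = 5.36e-06). Cxcl12, the stromal ligand of Cxcr4, was at 453, 408 and 326 CPM in the control spleens and 136, 184 and 154 CPM in the 4T1 spleens, and fell by 1.09 log2 units (SE 0.19, adjusted p = 5.54e-04). In all, 8 of 19 tested members of this list rose and 2 fell, the other being the interleukin 1 receptor Il1r1 (-1.05). Among progenitor genes 6 of 18 rose. Cebpe, the transcription factor needed for specific granules, was at 2.52, 2.31 and 3.23 CPM in the control spleens and 46.7, 20.3 and 34.0 CPM in the 4T1 spleens, and rose by 3.89 log2 units (SE 0.39, adjusted p = 4.37e-06). Gfi1, a repressor required for neutrophil development, went from 3.11, 2.31 and 3.67 CPM to 29.5, 11.3 and 26.0 CPM and rose by 3.12 log2 units (SE 0.42, adjusted p = 5.41e-05). Myb rose by 1.10 log2 units (SE 0.22, adjusted p = 0.00152) and Cdk6 rose by 1.32 log2 units (SE 0.17, adjusted p = 3.61e-05). Several of these calls lay near the 2-fold limit. Cxcl12 missed the rule without the first 4T1 library (-0.996) or the first control library (-0.96). Il1r1 missed the rule without the first 4T1 library (-0.99) or the third control library (-0.95). Cxcr4 missed the rule with DESeq2 (0.996), with its size factors in edgeR (0.99), at 10 counts in each library (0.90), with library totals (0.77), with no filter (0.997) and without the second 4T1 library (0.98), the third 4T1 library (0.96) or the third control library (0.87). Myb missed the rule at 10 counts in each library (0.97), with library totals (0.84) and without the 2 libraries rich in pancreas transcripts (0.83), the third 4T1 library (0.96), the first control library (0.99) or the second control library (0.96). At 10 counts in each library 3 progenitor genes were called.

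Genes of other granulocytes rose too. Of 9 tested eosinophil genes, 6 rose, and the list median was 2.39 on the log2 scale. Prg2, the eosinophil major basic protein, was at 66.2, 63.5 and 30.8 CPM in the control spleens and 989, 316 and 556 CPM in the 4T1 spleens, and rose by 3.78 log2 units (SE 0.39, adjusted p = 5.85e-06). Epx, eosinophil peroxidase, went from 5.05, 4.38 and 3.23 CPM to 71.0, 30.1 and 45.0 CPM and rose by 3.76 log2 units (SE 0.35, adjusted p = 2.66e-06). Of 11 basophil and mast cell genes 4 rose and 1 fell, against 3 and 3 with library totals and 3 and 1 with DESeq2. The basophil proteases Mcpt8 and Prss34 rose by 2.65 log2 units (SE 0.41, adjusted p = 1.91e-04) and by 4.48 log2 units (SE 0.40, adjusted p = 2.05e-06), the IgE receptor chain Fcer1a rose by 1.31 log2 units (SE 0.57, adjusted p = 0.0913), while the mast cell protease Mcpt4 fell by 2.64 log2 units (SE 0.71, adjusted p = 0.0102). Hdc, the histidine decarboxylase that makes histamine, which neutrophils also express, rose by 3.56 log2 units (SE 0.24, adjusted p = 2.39e-07). Fcer1a missed the rule with DESeq2 (adjusted p = 0.166), with library totals (adjusted p = 0.158), with the filter over 12 spleens (adjusted p = 0.1), with no filter (adjusted p = 0.152) and without the 2 libraries rich in pancreas transcripts (0.89), the first 4T1 library (adjusted p = 0.17), the third 4T1 library (0.96), the first control library (adjusted p = 0.101), the second control library (adjusted p = 0.192) or the third control library (adjusted p = 0.192).

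Of 16 tested genes named for the suppressive action of myeloid cells, 2 were called higher, and the list median was 0.11. Over all genes 10.9% were called higher, so this count lay near that share. The 2 were Ncf1 (1.71) and Ncf4 (1.65), cytosolic subunits of the phagocyte NADPH oxidase. Arg1, arginase 1, which depletes arginine, was read at 0, 0 and 1.08 CPM in the control spleens and 0, 1.22 and 3.43 CPM in the 4T1 spleens, with 0 counts in 2 control libraries and 1 4T1 library and an adjusted p of 0.12. Arg2 and Ptgs2 had too few counts to be tested. For Nos2, inducible nitric oxide synthase, 5 control and 13 4T1 counts gave a ratio of 2.91 (95% exact interval 0.972 to 10.4). Among 15 monocyte genes 3 rose and 1 fell, with a list median of 0.17, against 10.9% higher and 11.0% lower over all genes. With library totals 2 rose and 4 fell, and without the second 4T1 library 3 rose and 4 fell. Ccr2, the receptor that brings monocytes out of marrow, was at 76.7, 83.1 and 53.3 CPM in the control spleens and 154, 109 and 97.6 CPM in the 4T1 spleens, and rose by 1.003 log2 units (SE 0.21, adjusted p = 0.0021), at the edge of the 2-fold limit. F13a1 (1.80) and Vcan (1.66) rose further and Ms4a4c fell by 1.17 on the log2 scale. Ccr2 missed the rule with DESeq2 (0.98), with its size factors in edgeR (0.98), at 10 counts in each library (0.88), with library totals (0.76), with no filter (0.98) and without the first 4T1 library (0.78) or the third control library (0.82).

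Red cell genes rose as well. Of 32 tested erythroid genes (35 listed), 26 rose, and the list median was 1.51 on the log2 scale. Their summed level was 89499 to 103708 CPM in the control spleens and 138500.0 to 151134 CPM in the 4T1 spleens. The alpha globin genes Hba-a1 and Hba-a2 share nearly all of their sequence and are uncertain as separate genes. Hba-a1 was listed at 17897, 15401 and 17406 CPM in the control spleens and 35481, 36205 and 33264 CPM in the 4T1 spleens, and rose by 1.30 log2 units (SE 0.24, adjusted p = 9.08e-04). Slc4a1, the anion exchanger band 3 of the red cell membrane, went from 209.9, 264 and 339.6 CPM to 827, 968 and 841 CPM and rose by 1.95 log2 units (SE 0.25, adjusted p = 4.27e-05). Tfrc, the transferrin receptor through which precursors take up iron, went from 459, 473 and 512 CPM to 1007, 1136 and 1098 CPM and rose by 1.41 log2 units (SE 0.15, adjusted p = 8.71e-06). For all 3 genes the groups did not overlap. Klf1, the master transcription factor of the lineage, rose by 1.89 log2 units (SE 0.20, adjusted p = 7.47e-06), Epor, the erythropoietin receptor, rose by 2.19 log2 units (SE 0.39, adjusted p = 5.86e-04), and Car2, carbonic anhydrase, rose by 1.48 log2 units (SE 0.19, adjusted p = 4.88e-05). Ahsp, Fam132b and Erfe did not have enough counts to be tested.

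All 11 genes of heme biosynthesis rose, with a median of 1.32 and a summed level of 1581 to 2169 CPM in the control spleens and 4098 to 4438 CPM in the 4T1 spleens. Alas2, the erythroid enzyme that starts the pathway, was at 40.0, 14.8 and 13.4 CPM in the control spleens and 44.3, 42.9 and 86.6 CPM in the 4T1 spleens, and rose by 1.59 log2 units (SE 0.41, adjusted p = 0.00763). Alad, the next step, went from 286, 295 and 542 CPM to 743, 789 and 795 CPM and rose by 1.30 log2 units (SE 0.23, adjusted p = 5.53e-04). Fech, which inserts the iron, rose by 1.06 log2 units (SE 0.19, adjusted p = 5.25e-04). Every member's lowest 4T1 value exceeded its highest control value. Alas2 missed the rule without the 2 libraries rich in pancreas transcripts (0.89). Fech missed the rule at 10 counts in each library (0.93), with library totals (0.81) and without the 2 libraries rich in pancreas transcripts (0.96) or the second control library (0.96).

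The erythroid factor GATA1 binds AGATAA, which reads TTATCT on the other strand. Promoter stretches of the genes for the erythropoietin receptor and for the first heme enzyme are shown with that match in capitals.
Epor (chr9:21963573-21963682, minus strand): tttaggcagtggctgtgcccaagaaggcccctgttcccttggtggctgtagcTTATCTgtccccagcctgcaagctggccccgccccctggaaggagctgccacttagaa
Alas2 (chrX:150547279-150547388, plus strand): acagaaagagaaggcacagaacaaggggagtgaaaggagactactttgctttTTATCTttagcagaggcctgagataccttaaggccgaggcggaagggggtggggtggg
Such a match stood in 10 of 24 erythroid promoters, in 2 of 9 heme biosynthesis promoters and in 12.7% of all symbols with a promoter. It also stood in 6 of 16 megakaryocyte and platelet, 3 of 7 stefin A cluster and 1 of 17 B cell promoters. The match was thus not particular to red cell genes.

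Platelet genes moved in the same direction. Of 20 tested megakaryocyte and platelet genes, 15 rose, and the list median was 1.34 on the log2 scale. The count was 11 with library totals and 11 without the 2 libraries rich in pancreas transcripts. It was 10 of 16 at 10 counts in each library, 10 without the first 4T1 library and 17 without the second. Pf4, platelet factor 4, was at 232, 207 and 163 CPM in the control spleens and 889.8, 411 and 778 CPM in the 4T1 spleens, and rose by 2.04 log2 units (SE 0.26, adjusted p = 3.23e-05). Itga2b, the alpha chain of the platelet fibrinogen receptor, went from 21.9, 24.9 and 17.9 CPM to 79.6, 41.9 and 71.1 CPM and rose by 1.82 log2 units (SE 0.23, adjusted p = 3.95e-05). Ppbp rose by 1.73 log2 units (SE 0.34, adjusted p = 0.00121), Itgb3 rose by 1.07 log2 units (SE 0.22, adjusted p = 0.00159) and Gp5 rose by 1.40 log2 units (SE 0.30, adjusted p = 0.00243). The groups did not overlap for 11 of the 20, 10 of them higher in 4T1. Itgb3 missed the rule at 10 counts in each library (0.94), with library totals (0.81) and without the 2 libraries rich in pancreas transcripts (0.92), the first 4T1 library (0.90) or the third 4T1 library (0.92).

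Genes of the cell cycle formed another group. Of 30 tested DNA replication genes, 23 rose, and the list median was 1.25 on the log2 scale. Mcm7, a subunit of the replicative helicase, was at 67.2, 53.8 and 101 CPM in the control spleens and 254, 191 and 266 CPM in the 4T1 spleens, and rose by 1.94 log2 units (SE 0.24, adjusted p = 3.18e-05). Rrm2, the ribonucleotide reductase subunit that supplies deoxynucleotides, went from 50.7, 37.1 and 54.8 CPM to 257, 189.8 and 269 CPM and rose by 2.58 log2 units (SE 0.26, adjusted p = 5.16e-06). Tk1, thymidine kinase, rose by 2.03 log2 units (SE 0.20, adjusted p = 3.70e-06), and Lig1, the DNA ligase of replication, rose by 1.05 log2 units (SE 0.30, adjusted p = 0.0147). Pcna, the sliding clamp, was at 92.2, 77.5 and 101 CPM in the control spleens and 168, 137 and 127 CPM in the 4T1 spleens, a log2 difference of 0.92 (SE 0.19, adjusted p = 0.00163), under 2-fold. Lig1 missed the rule at 10 counts in each library (0.92), with library totals (0.79) and without the 2 libraries rich in pancreas transcripts (0.93), the first control library (0.80) or the second control library (0.89). Scaled by library totals, 14 of the 30 were called higher rather than 23, and without the libraries richest in pancreas transcripts 15.

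Of 30 tested mitosis genes, 26 rose, and the list median was 1.61 on the log2 scale. Summed, they were at 2586 to 3403 CPM in the control spleens and 6202 to 6382 CPM in the 4T1 spleens. Plk1, the polo-like kinase of mitotic entry, was at 97.7, 111 and 135 CPM in the control spleens and 375, 462 and 396 CPM in the 4T1 spleens, and rose by 2.09 log2 units (SE 0.21, adjusted p = 4.87e-06). Birc5, survivin of the chromosomal passenger complex, went from 336, 392 and 482 CPM to 851, 1058 and 900.3 CPM and rose by 1.46 log2 units (SE 0.24, adjusted p = 3.29e-04). Cdk1, the mitotic cyclin-dependent kinase, went from 93.0, 57.2 and 44.0 CPM to 336, 252 and 342 CPM and rose by 2.50 log2 units (SE 0.29, adjusted p = 1.61e-05). Groups did not overlap for 29 of the 30 genes, these 3 included. The 4 uncalled members, Mki67, Top2a, Cenpf and Prc1, had log2 differences of 0.82, 0.98, 0.96 and 0.96, below the 2-fold limit.

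Promoters of mitosis genes often carry CCAAT, the NF-Y motif, together with TTTGAA, known as the cell cycle genes homology region. Both are in capitals in the stretches of 4 genes that rose: Plk1, the kinase Aurka, Cdc20, which activates the anaphase-promoting complex, and the cyclin Ccnb2.
Plk1 (chr7:122159375-122159484, plus strand): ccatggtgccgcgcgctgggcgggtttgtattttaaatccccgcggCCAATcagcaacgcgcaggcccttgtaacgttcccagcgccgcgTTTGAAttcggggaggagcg
Aurka (chr2:172370526-172370635, minus strand): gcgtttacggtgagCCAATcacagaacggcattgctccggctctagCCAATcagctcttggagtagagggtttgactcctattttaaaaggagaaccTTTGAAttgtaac
Cdc20 (chr4:118437313-118437422, minus strand): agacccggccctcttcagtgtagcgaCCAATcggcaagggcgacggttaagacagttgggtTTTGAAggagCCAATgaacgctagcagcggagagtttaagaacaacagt
Ccnb2 (chr9:70421545-70421654, minus strand): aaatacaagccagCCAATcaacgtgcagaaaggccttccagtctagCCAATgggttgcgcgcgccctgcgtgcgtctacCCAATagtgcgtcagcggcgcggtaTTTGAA
TTTGAA was found on either strand in 19 of 26 mitosis promoters, in 3 of 25 replication promoters and in 20.2% of all symbols. CCAAT was found in 21 of 26, 15 of 25 and 41.1%. Aurka rose by 1.51 log2 units (SE 0.17, adjusted p = 1.52e-05), Cdc20 rose by 2.19 log2 units (SE 0.27, adjusted p = 3.25e-05) and Ccnb2 rose by 1.87 log2 units (SE 0.22, adjusted p = 1.60e-05).

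B cell genes fell. Of 26 tested B cell genes, 17 fell, and the list median was -1.13 on the log2 scale. Their summed level was 7168 to 8055 CPM in the control spleens and 2552 to 3825 CPM in the 4T1 spleens. Cr2, complement receptor 2 of marginal zone and follicular B cells, was at 527, 523 and 819 CPM in the control spleens and 136, 244 and 137 CPM in the 4T1 spleens, and fell by 1.61 log2 units (SE 0.23, adjusted p = 8.35e-05). Ms4a1, which encodes CD20, went from 413, 352 and 437 CPM to 80.8, 111 and 65.8 CPM and fell by 1.98 log2 units (SE 0.20, adjusted p = 4.18e-06). Cd79b, the signalling chain of the B cell receptor, went from 177, 171 and 263 CPM to 46.3, 66.6 and 41.4 CPM and fell by 1.74 log2 units (SE 0.23, adjusted p = 4.50e-05). Control and 4T1 values did not overlap for any of these 3. Bank1 fell by 1.56 log2 units (SE 0.18, adjusted p = 1.42e-05), the lineage transcription factor Ebf1 fell by 1.01 log2 units (SE 0.18, adjusted p = 6.05e-04) and the B cell coactivator Pou2af1 fell by 1.01 log2 units (SE 0.23, adjusted p = 0.00311). Pax5, which keeps B cell identity, was at 175, 161 and 145 CPM in the control spleens and 70.7, 115 and 77.7 CPM in the 4T1 spleens with a log2 difference of -0.63 (SE 0.19, adjusted p = 0.0225). Ebf1 missed the rule without the first 4T1 library (-0.85), the third 4T1 library (-0.999), the first control library (-0.99) or the third control library (-0.97). Pou2af1 missed the rule without the 2 libraries rich in pancreas transcripts (-0.96), the first 4T1 library (-0.88), the third 4T1 library (-0.93) or the first control library (-0.92). None of 8 tested germinal centre genes passed edgeR's rule, and DESeq2 called none either, although 1 had an unadjusted edgeR p under 0.05 in the higher direction and 1 was called higher without the second 4T1 or the first control library and 1 lower with library totals.

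Among 17 tested immunoglobulin and plasma cell genes 6 fell and 1 rose. The joining chain gene Jchain, needed to build IgM and IgA polymers, was at 1599, 1527 and 704 CPM in the control spleens and 295, 373 and 345 CPM in the 4T1 spleens, and fell by 1.68 log2 units (SE 0.26, adjusted p = 1.95e-04). Igha, the IgA heavy chain, fell by 1.49 log2 units (SE 0.20, adjusted p = 6.17e-05), and the lambda constant region Iglc2 fell by 1.82 log2 units (SE 0.25, adjusted p = 6.33e-05). Ighm, the IgM heavy chain, was at 3972, 4526 and 2966 CPM in the control spleens and 1556, 2049 and 1462 CPM in the 4T1 spleens and missed the 2-fold limit at -0.94 (SE 0.21, adjusted p = 0.00314). The kappa constant region Igkc overlapped between groups, with 3289.8, 3613 and 2902 CPM in the control spleens and 1845, 2926 and 1713 CPM in the 4T1 spleens. Ighg1, the IgG1 heavy chain, moved the other way, from 10.3, 24.7 and 14.0 CPM to 34.5, 25.2 and 64.0 CPM, and rose by 1.61 log2 units (SE 0.38, adjusted p = 0.00443). Without the second 4T1 or the third control library 2 genes of this list rose.

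Of 27 tested T cell genes, 11 fell, and the list median was -0.97 on the log2 scale. Trac, the constant region of the T cell receptor alpha chain, was at 82.5, 145 and 171 CPM in the control spleens and 36.4, 51.2 and 32.0 CPM in the 4T1 spleens, and fell by 1.49 log2 units (SE 0.28, adjusted p = 9.48e-04). Cd3e, of the CD3 complex, went from 39.0, 65.5 and 59.7 CPM to 17.3, 25.5 and 16.7 CPM and fell by 1.22 log2 units (SE 0.21, adjusted p = 4.92e-04). Il7r, the receptor of the survival factor interleukin 7, went from 115, 183 and 272 CPM to 33.3, 49.0 and 30.4 CPM and fell by 2.09 log2 units (SE 0.30, adjusted p = 1.07e-04). All 3 were lower in every 4T1 library than in any control. The coreceptor genes did not pass, with Cd4 at -0.093 and Cd8a at -0.53. Summed over the list, the level was 1457 to 1811 CPM in the control spleens and 583 to 796 CPM in the 4T1 spleens. Scaled by library totals 20 of 27 were called lower, and leaving out 1 library at a time gave 10 to 16. Cd3e missed the rule without the 2 libraries rich in pancreas transcripts (-0.997).

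Cytotoxic T and natural killer cell genes gave 9 lower of 20 and 1 higher. Gzma, granzyme A, was at 98.3, 129 and 83.9 CPM in the control spleens and 28.0, 42.6 and 21.9 CPM in the 4T1 spleens, and fell by 1.51 log2 units (SE 0.29, adjusted p = 0.00117). Prf1, perforin, which opens the target membrane, went from 19.4, 25.4 and 23.5 CPM to 5.99, 9.55 and 4.80 CPM and fell by 1.50 log2 units (SE 0.30, adjusted p = 0.00146). Ncr1, an activating receptor of natural killer cells, fell by 1.25 log2 units (SE 0.27, adjusted p = 0.00254), and the lectin receptor Klrk1 (NKG2D) fell by 1.64 log2 units (SE 0.24, adjusted p = 1.06e-04). Nkg7, a granule membrane protein of these cells, was the exception, going from 23.1, 27.7 and 23.5 CPM to 61.6, 37.0 and 64.2 CPM, and rose by 1.39 log2 units (SE 0.23, adjusted p = 3.42e-04). Of 16 regulatory T cell and checkpoint genes 3 fell, Btla (-1.53), Havcr2 (-1.41) and Il2ra (-1.17), against 11.0% lower over all genes. With library totals 7 fell. Foxp3, which defines regulatory T cells, was at 2.14, 1.38 and 1.72 CPM in the control spleens and 0.479, 1.47 and 2.06 CPM in the 4T1 spleens, a log2 difference of -0.14 (SE 0.50, adjusted p = 0.856). Ncr1 missed the rule without the 2 libraries rich in pancreas transcripts (-0.93). Il2ra missed the rule without the 2 libraries rich in pancreas transcripts (adjusted p = 0.106), the second 4T1 library (-0.95) or the third 4T1 library (-0.96).

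For antigen presentation, 6 of 14 MHC class II pathway genes fell, with a median of -0.85. H2-Ab1, a class II beta chain, was at 1245, 1525 and 1320.4 CPM in the control spleens and 508, 685 and 451 CPM in the 4T1 spleens, and fell by 1.07 log2 units (SE 0.17, adjusted p = 2.89e-04). Cd74, the invariant chain, went from 338, 641 and 853 CPM to 226, 326 and 183 CPM and fell by 1.07 log2 units (SE 0.29, adjusted p = 0.0115). Ciita, the transactivator of the pathway, fell by 1.06 log2 units (SE 0.19, adjusted p = 7.10e-04). Only 2 of 21 dendritic cell genes passed, both lower: the plasmacytoid markers Siglech (-1.24) and Ccr9 (-1.15). Over all genes 11.0% were called lower, so this count did not stand out. It was 6 without the second 4T1 library and 7 with library totals. H2-Ab1 missed the rule without the 2 libraries rich in pancreas transcripts (-0.90), the third 4T1 library (-0.99) or the second control library (-0.997). Cd74 missed the rule without the 2 libraries rich in pancreas transcripts (-0.89), the third 4T1 library (-0.93) or the third control library (-0.77). Ciita missed the rule without the first 4T1 library (-0.91).

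Of 6 tested marginal zone macrophage genes, 5 fell, and the list median was -1.30 on the log2 scale. Their summed level was 740.4 to 983 CPM in the control spleens and 291 to 465 CPM in the 4T1 spleens. Marco, a scavenger receptor for bacteria, was at 473, 298 and 467 CPM in the control spleens and 86.3, 165 and 97.1 CPM in the 4T1 spleens, and fell by 1.59 log2 units (SE 0.23, adjusted p = 1.15e-04). Cd209b (SIGN-R1), a lectin for bacterial polysaccharide, went from 65.1, 59.1 and 93.4 CPM to 12.9, 21.3 and 11.9 CPM and fell by 1.99 log2 units (SE 0.27, adjusted p = 5.67e-05). Timd4, a receptor for apoptotic cells, went from 115, 101 and 146 CPM to 30.9, 50.2 and 29.9 CPM and fell by 1.46 log2 units (SE 0.21, adjusted p = 1.13e-04). The groups did not overlap for any of the 5 that fell, which also included Nr1h3, the receptor LXR alpha (-1.13), and Siglec1, sialoadhesin (-1.02). Without the third 4T1 library 3 of the 6 were called. Nr1h3 missed the rule without the 2 libraries rich in pancreas transcripts (-0.88) or the third 4T1 library (-0.98). Siglec1 missed the rule without the 2 libraries rich in pancreas transcripts (-0.96), the first 4T1 library (-0.97), the third 4T1 library (-0.82), the first control library (-0.92) or the third control library (-0.98).

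Red pulp macrophage and iron handling genes split, with 4 of 23 higher, 6 lower and a median of -0.65. Spic, the transcription factor of red pulp macrophages, was at 124, 92.8 and 92.1 CPM in the control spleens and 34.8, 47.7 and 38.2 CPM in the 4T1 spleens, and fell by 1.11 log2 units (SE 0.19, adjusted p = 4.56e-04). Cd163, the haptoglobin-hemoglobin receptor, fell by 1.34 log2 units (SE 0.19, adjusted p = 1.10e-04), and C1qa, a chain of complement C1q, fell by 1.09 log2 units (SE 0.24, adjusted p = 0.00259). The other 3 that fell were Mertk (-1.03), Hpgd (-1.51) and Epb41l3 (-1.55). The 4 that rose were the ferritin chains Fth1 (1.50) and Ftl1 (1.74), the biliverdin reductase Blvrb (1.40) and the ferrireductase Steap3 (1.98). Red cell precursors also use these genes, and which cells their reads came from was not tested. Slc40a1, the iron exporter ferroportin, was at 340.4, 311 and 406 CPM in the control spleens and 166, 172 and 119.7 CPM in the 4T1 spleens, a log2 difference of -0.96 (SE 0.18, adjusted p = 9.42e-04). Mertk missed the rule without the third 4T1 library (-0.93) or the third control library (-0.97). Spic missed the rule without the first control library (-0.94). C1qa missed the rule without the third control library (-0.75). Ftl1 missed the rule with DESeq2 (adjusted p = 0.181), at 10 counts in each library (adjusted p = 0.106), with library totals (adjusted p = 0.126) and without the 2 libraries rich in pancreas transcripts (0.50), the third 4T1 library (0.73), the second control library (adjusted p = 0.233) or the third control library (adjusted p = 0.223).

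**Figure D3:**
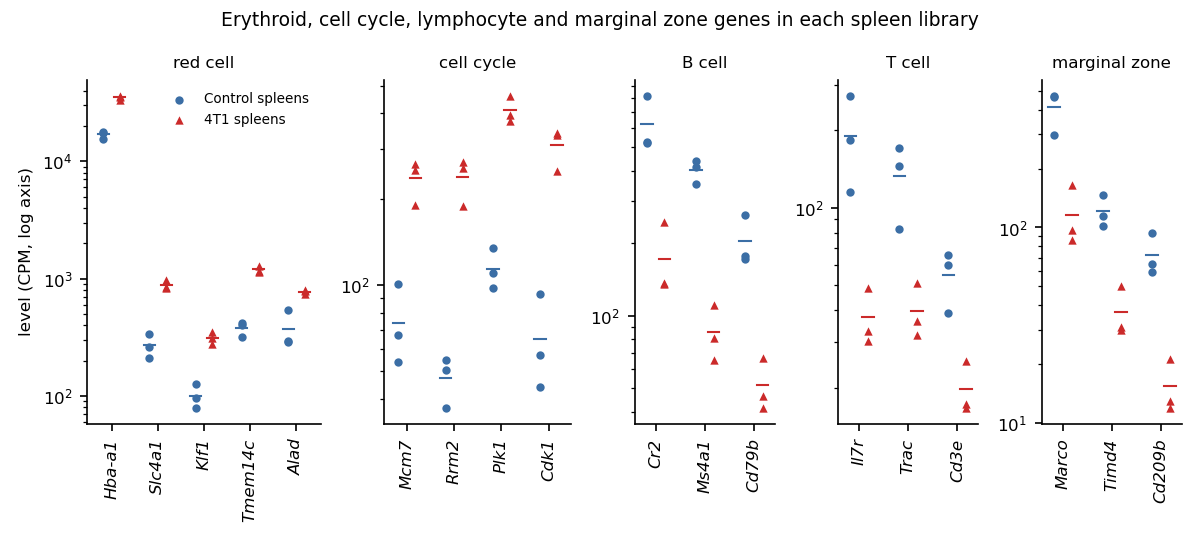
Level of 18 genes (CPM, log axis) in each library, with blue circles for the 3 control spleens, red triangles for the 3 4T1 spleens and short lines for group means; panels hold red cell, cell cycle, B cell, T cell and marginal zone genes. Red cell and cell cycle points of the 4T1 spleens lie above the control points, and lymphocyte and marginal zone points lie below them, as for Marco at 298 to 473 CPM in the controls and 86.3 to 165 CPM in the 4T1 spleens.

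Of 23 tested stromal genes of the spleen 6 fell, and of 17 endothelial genes 7 fell. Dcn, decorin, was at 56.3, 95.8 and 87.3 CPM in the control spleens and 26.4, 28.9 and 23.5 CPM in the 4T1 spleens, and fell by 1.35 log2 units (SE 0.22, adjusted p = 2.93e-04). Tcf21 and Wt1, transcription factors of spleen mesenchyme, fell by 1.31 log2 units (SE 0.26, adjusted p = 0.00148) and by 1.76 log2 units (SE 0.21, adjusted p = 2.28e-05). Scaled by library totals 12 stromal genes were called lower. Interferon-stimulated genes gave 6 higher and 2 lower of 30, with a median of -0.35, against 10.9% higher and 11.0% lower over all genes. Ifitm3, a membrane protein that blocks virus entry and is abundant in myeloid cells, was at 205, 215 and 149 CPM in the control spleens and 431, 386 and 381 CPM in the 4T1 spleens, and rose by 1.32 log2 units (SE 0.22, adjusted p = 4.14e-04). The oligoadenylate synthetase family genes Oas1a, Oas2, Oas3 and Oasl1 rose by 1.31, 1.15, 1.23 and 1.25 on the log2 scale, whereas Mx2 and Ifi44 fell by 1.09 and 1.37. With library totals 1 interferon-stimulated gene was called higher and 6 lower, without the third 4T1 library 3 and 5, and with DESeq2 5 and 4. Oas1a missed the rule with DESeq2 (adjusted p = 0.115), with library totals (adjusted p = 0.156) and without the 2 libraries rich in pancreas transcripts (0.86), the first 4T1 library (adjusted p = 0.141), the third 4T1 library (0.92), the second control library (adjusted p = 0.19) or the third control library (0.98). Oas2 missed the rule with library totals (0.90) and without the third 4T1 library (adjusted p = 0.112) or the first control library (0.81). Oas3 missed the rule with library totals (0.98). Oasl1 missed the rule with library totals (0.996). Mx2 missed the rule without the 2 libraries rich in pancreas transcripts (adjusted p = 0.194), the second 4T1 library (-0.93) or the second control library (adjusted p = 0.117). The stromal count was 10 without the second 4T1 library and the endothelial count 4 without the third control library. Among immediate early and heat shock genes 3 of 12 rose, Junb, Dusp1 and Ier3, and 1 with library totals, with Junb, a subunit of the AP-1 transcription factor, at 43.9, 49.8 and 40.5 CPM in the control spleens and 109, 105 and 87.7 CPM in the 4T1 spleens. Dusp1 missed the rule with library totals (0.97). Ier3 missed the rule with library totals (0.93) and without the 2 libraries rich in pancreas transcripts (0.998).

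**Figure D4:**
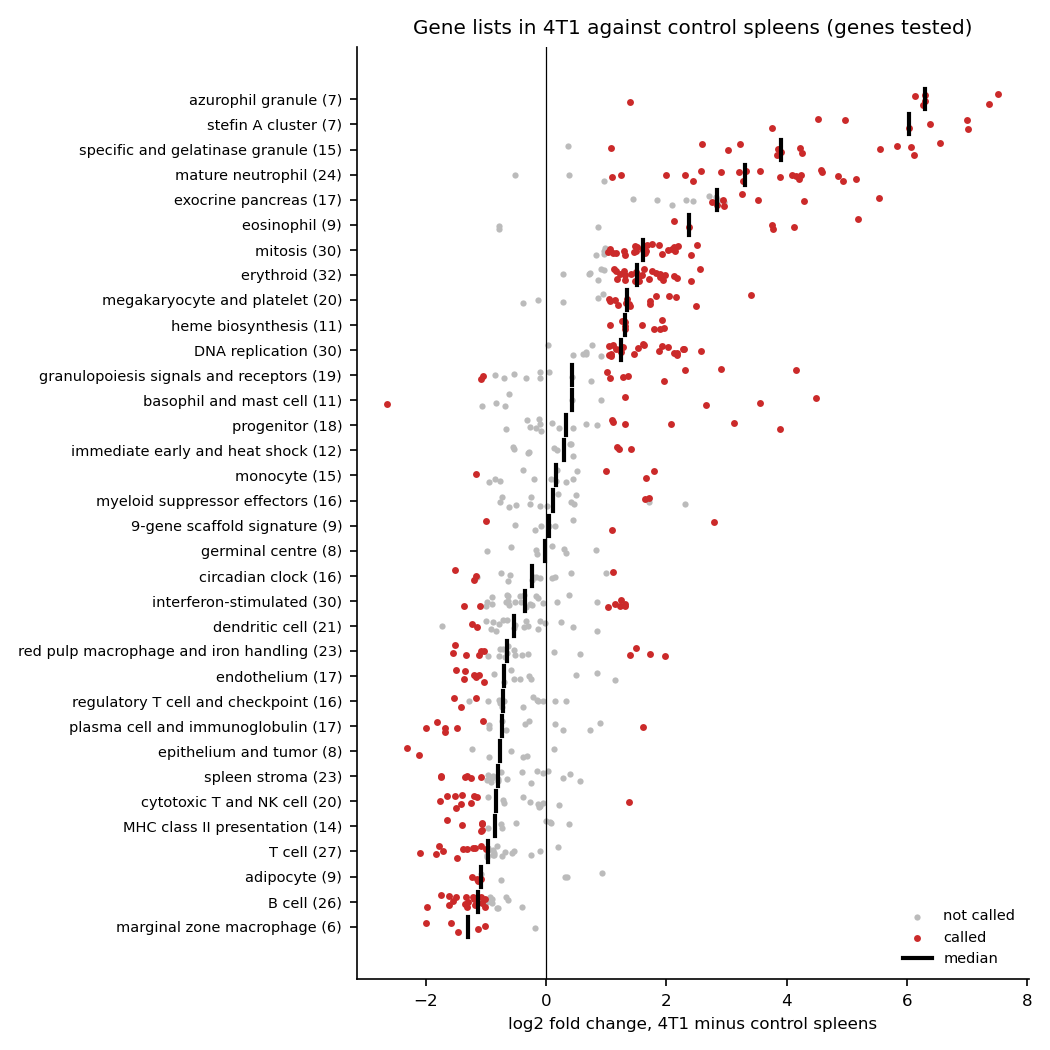
Each point is a tested gene of one of 34 lists, with its log2 fold change, 4T1 minus control spleens, on the x axis; red points were called, grey points were not, black bars are list medians and the number of tested genes stands in brackets. The azurophil granule list has the highest median, 6.30, and the marginal zone macrophage list has a median of -1.30.

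Genes of tissues other than spleen differed between libraries. The 17 tested exocrine pancreas genes summed to 106, 1313 and 100.0 CPM in the control spleens and 409, 597 and 5912 CPM in the 4T1 spleens. By edgeR 8 of them were called higher, and by DESeq2 2. Cpb1, a carboxypeptidase, was at 2.33, 62.3 and 1.94 CPM in the control spleens and 24.9, 34.5 and 457 CPM in the 4T1 spleens, so that the second control library lay above both the first and the second 4T1 library. Without the third 4T1 library edgeR called none of the 17 higher, without the second control library all 17 were, without both 15 were, and without the first or the third control library 2. Of 9 tested adipocyte genes 4 fell, Adipoq (-1.23), Fabp4 (-1.15), Cfd (-1.08) and Car3 (-1.13), and none without the first 4T1 library, without the first control library or without both pancreas-rich libraries, 1 without the third 4T1 library and 2 without the third control library. Tumor epithelium was scarcely read, since 9 of 17 epithelial and tumor genes had too few counts to be tested. Of the 8 tested 2 fell by edgeR and 1 by DESeq2. Epcam, an epithelial adhesion molecule, was at 6.99, 9.46 and 4.96 CPM in the control spleens and 1.44, 0.979 and 1.14 CPM in the 4T1 spleens, and fell by 2.31 log2 units (SE 0.40, adjusted p = 4.72e-04). The part of these tissues in the other results was not tested.

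The 12 genes that fell furthest were taken among those with separate groups and a mean of at least 5 CPM. Ubd, the ubiquitin-like modifier FAT10, was at 34.0, 38.1 and 31.7 CPM in the control spleens and 1.20, 6.12 and 2.74 CPM in the 4T1 spleens, and fell by 3.12 log2 units (SE 0.35, adjusted p = 1.26e-05). Lmo7, a LIM domain scaffold protein, went from 5.63, 10.6 and 12.9 CPM to 0.959, 0.979 and 1.83 CPM and fell by 2.66 log2 units (SE 0.39, adjusted p = 1.16e-04). Pcdh9, a protocadherin, went from 28.7, 31.4 and 46.4 CPM to 5.51, 6.37 and 3.88 CPM and fell by 2.51 log2 units (SE 0.27, adjusted p = 7.47e-06). Angptl1 (-2.35), an angiopoietin-like secreted protein, Klk8 (-2.33), a kallikrein protease, and St18 (-2.30), a zinc finger transcription factor, fell by similar amounts. The other 6 carried names of predicted, small nucleolar or pseudogene transcripts, Gm25008 (-3.07), Gm28693 (-2.65), Gm43287 (-2.51), Gm43023 (-2.41), Snord55 (-2.33) and Rpl21-ps6 (-2.30), whose reads may be shared with other copies. The 12 that rose furthest were all named above except Lipg, endothelial lipase, which had 5 counts over the control libraries and 319 over the 4T1 libraries, a ratio of 71.3 (95% exact interval 30.2 to 221).

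The study derived a signature of 9 genes from its scaffolds and also applied it to lung, spleen and blood. For the spleen it reported that a principal component plot of the signature could not separate 4T07 from 4T1 mice. Here each of these genes was compared singly between 4T1 and control spleens. Of the 9, 2 rose and 1 fell here, against 10.9% called higher and 11.0% called lower over all genes. Ifitm1, an interferon-induced membrane protein, was at 73.2, 64.6 and 63.2 CPM in the control spleens and 492, 317 and 359 CPM in the 4T1 spleens, and rose by 2.79 log2 units (SE 0.25, adjusted p = 2.21e-06). Fhl1, a LIM domain protein, rose by 1.10 log2 units (SE 0.24, adjusted p = 0.00259), and Slc1a3, a glutamate transporter, fell by 1.01 log2 units (SE 0.24, adjusted p = 0.00524). The rest had log2 differences of 0.051 for Dhx9, 0.15 for Ndufs1, -0.084 for Pja2, 0.44 for Dusp12, -0.19 for Soga1 and -0.51 for Spon2, none of them past the rule. The signature was chosen by the study on other tissues of these mice, so its direction is not independent evidence. Fhl1 missed the rule at 10 counts in each library (0.97), with library totals (0.85) and without the first 4T1 library (0.81). Slc1a3 missed the rule with the filter over 12 spleens (-0.999) and without the first 4T1 library (-0.96), the second 4T1 library (-0.92) or the first control library (-0.93).

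The 4T1 spleens were then set beside those of the less metastatic lines, in the same fit. Against 4T07 spleens 165 genes were called higher (0.892%) and 260 lower (1.41%), 2.3% in all. Against 67NR spleens 2094 were higher (11.3%) and 2008 lower (10.9%). Of the azurophil genes, none of the 7 was called between 4T1 and 4T07 by edgeR or by DESeq2 (1 of them had an unadjusted edgeR p under 0.05, higher in 4T1), whereas all 7 were higher in 4T1 than in 67NR. Mpo was -0.31 on the log2 scale in 4T1 relative to 4T07 and 5.85 relative to 67NR. Relative to the control spleens, which those 3 contrasts share, Mpo was 6.31 in 4T1, 6.62 in 4T07 and 0.46 in 67NR spleens.

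Genes of mature neutrophils were higher in 4T1 than in 4T07 spleens for 8 of 24 members. Csf3r was higher by 1.79 (SE 0.17, adjusted p = 5.51e-05), Cxcr2 by 1.48 (SE 0.20, adjusted p = 9.21e-04) and Il1b by 2.07 (SE 0.15, adjusted p = 3.13e-06). The others were Clec4d, Clec4e, Trem1, Wfdc17 and G0s2. Of the stefin A cluster Stfa2, Stfa3, Stfa2l1, Cstdc4 and Cstdc6 were higher, with Cstdc4 at 2.65 (SE 0.32, adjusted p = 4.69e-04). With DESeq2 3 of these 5 passed, and Stfa2 (adjusted p = 0.237) and Stfa3 (adjusted p = 0.156) did not. G0s2 missed the rule with library totals (0.995). Fcnb, a ficolin of the specific granule list, was the one granule gene called, lower in 4T1 at -1.38 (SE 0.29, adjusted p = 0.0251). At an unadjusted edgeR p under 0.05, 5 of the 15 tested genes of that list were lower in 4T1 and 0 were higher. Some platelet and basophil genes were also lower in 4T1 than in 4T07: Gp1bb, Gp5 and Clec1b, and Mcpt8, Prss34 and Cd200r3, with Mcpt8 at -2.01 (SE 0.32, adjusted p = 0.00482). The eosinophil peroxidase Epx was lower at -1.55 (SE 0.29, adjusted p = 0.0117) and Ifitm1 higher at 2.35 (SE 0.25, adjusted p = 1.13e-04). Of the 24 genes that rose or fell furthest against control, 4 differed from 4T07 and all 24 from 67NR at an adjusted p below 0.1, which 4.38% and 40.5% of all genes reached. These 24 were chosen by the distance of the same 4T1 libraries from control. Only 2.66% of genes were called between 67NR and control spleens, so passing against 67NR was largely set by that choice.

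For other lists the medians in 4T1 and 4T07 spleens, both relative to the shared controls, are given side by side without a test. Between 4T07 and control spleens 8.79% of genes were called higher and 10.9% lower, 19.7% in all. For erythroid genes the medians were 1.51 and 1.14, for mitosis genes 1.61 and 1.50, for B cell genes -1.13 and -1.06, and for T cell genes -0.97 and -1.07. In 67NR spleens, where 1.52% of genes were called higher than control and 1.13% lower, 10 erythroid genes, 8 replication and 8 mitosis genes rose, whereas no azurophil, B cell or T cell gene was called by edgeR. At an unadjusted edgeR p under 0.05 there were 0 azurophil genes, 5 B cell genes lower and 1 higher, and 8 T cell genes lower in 67NR than in control spleens, and DESeq2 called 1 of the B cell genes lower.

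Last, the 4T1 minus control difference in the spleen was tested against the same difference in the lungs of the same groups, in a fit of 24 spleen and lung libraries. The labels do not say whether a spleen and a lung came from the same animal, and all libraries were fitted as independent. In the lung 3.54% of genes were called higher and 0.654% lower in 4T1, 4.2% in all. The 2 differences differed at an adjusted p below 0.1 for 14.3% of genes in the direction of spleen above lung and 14.9% below. Of the 7 azurophil genes 6 rose in the lung too, with a lung median of 5.33, and 1 of 7 differed between them, Serpinb1a (1.12). Specific granule genes went both ways: Lcn2 (3.71), Hp (3.58) and Chil3 (4.42) rose more in spleen, while Ngp (-2.51) and Mmp8 (-1.57) rose more in lung. For mature neutrophil genes 4 of 24 were above and 10 below, the first being Hdc (2.56), Fpr2 (1.999), Trem1 (1.51) and G0s2 (1.38), with S100a8 at -1.92, Cxcr2 at -2.59 and Ly6g at -2.39. Trem1 missed the test without the third control spleen (adjusted p = 0.105).

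Cell cycle and lymphocyte genes also differed between the organs. The spleen difference was above that of the lung for 22 of 30 mitosis genes, 20 of 30 replication genes and 8 of 11 heme synthesis genes, and no member of these lists was below it by edgeR or DESeq2, also at an unadjusted p under 0.05. In the lung 3 mitosis genes rose, Ccna2, Plk1 and Birc5. B cell genes lay below for 10 of 26 and T cell genes for 17 of 27, and none of either list was called lower in the lung by edgeR, although 14 B cell and 3 T cell genes had an unadjusted p under 0.05 in that direction. Erythroid genes rose in the lung too, with 17 of 32 called and a median of 1.27, and the spleen difference was above that of the lung for 6 and below it for 1.

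**Figure D5:**
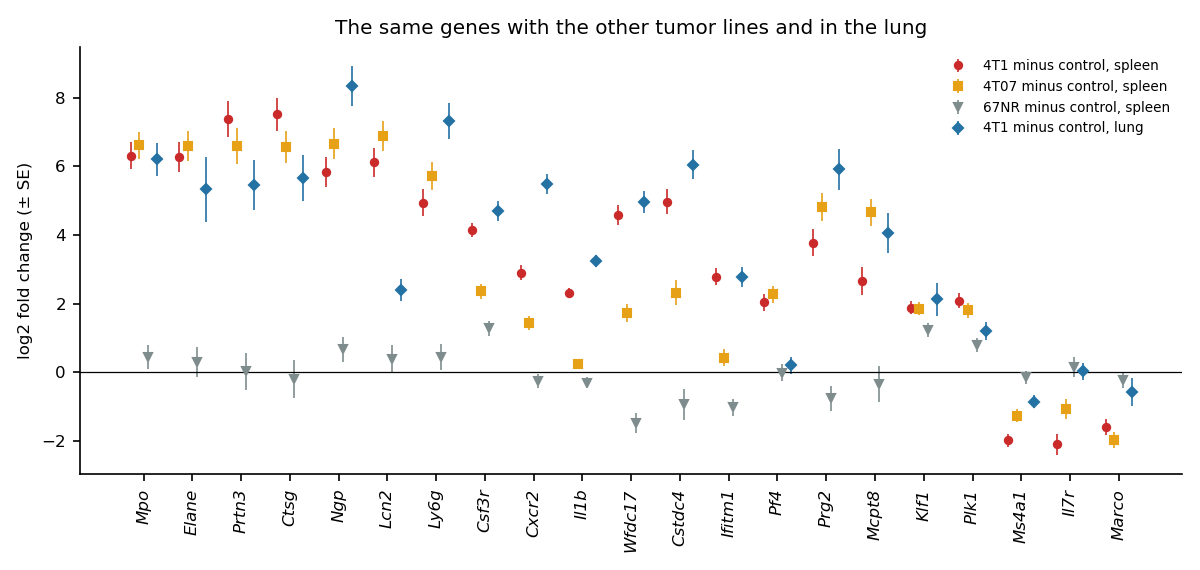
Log2 fold change with its SE for 21 genes in 4 comparisons: 4T1, 4T07 and 67NR minus control spleens and 4T1 minus control lungs. The SE is derived from the F statistic and is unreliable for values near 0. For Mpo the first, the second and the lung values stand at 6.31, 6.62 and 6.21, and the 67NR value at 0.46. The 3 spleen comparisons share the control libraries.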

How the data were processed

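RNA of the spleens was sequenced with Lexogen QuantSeq 3′ mRNA libraries carrying molecular identifiers. The authors deposited 1 table of raw read counts per gene symbol for all 45 libraries of the series, and the submitters' processing notes name Trim Galore 0.5.0, STAR 2.6.0 and featureCounts. The genome build, the annotation, the strand setting and whether identifiers were collapsed are not given in the sources used here. The 55487 lines were summed over repeated symbols to 55367 symbols, and groups came from the sample titles. The 18505 symbols with more than 10 counts over the 6 libraries were kept. They held 99.9% of the counts of these libraries, with 315 symbols just inside that limit at 11 counts and 351 just outside at 10.

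Counts of the 12 spleens were fitted with edgeR 4.0.16 in R 4.3.3 (quasi-likelihood test, TMM scaling, 1 mean per group, Benjamini-Hochberg adjustment), and contrasts were drawn for 4T1 against control, 4T07 and 67NR. A further fit of 24 spleen and lung libraries tested the difference of differences at an adjusted p below 0.1. CPM are counts scaled to a library total of 1000000. A 95% exact interval is given for ratios of few counts. On simulated counts for 18505 genes, 92% of 200 genes changed 4-fold were recovered for 4T1 against control spleens and 9.36% of calls were wrong. The changed genes were drawn from those with a mean of at least 10 counts, so these rates do not cover weaker genes or changes near 2-fold. As many genes were raised as lowered, and far fewer were changed than were called here. The rates therefore do not cover errors of scaling.

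The members and the gene lists were chosen with earlier results of these data known. Named genes were the 12 that rose and the 12 that fell furthest among called genes with separate groups and a mean of 5 CPM or more, and up to 6 called members of highest level per list, or any member of a list of 15 or fewer. Uncalled list members, Ly6g, Csf3r, Klf1, Epor, Aurka, Cdc20, Ccnb2, Tlx1, Il1r1, Steap3, Cd163, Hpgd, Epb41l3, Oas1a, Mx2 and the genes named for a difference from 4T07 or the lung were chosen after their values were seen. No pair of libraries within a group was identical. Alternatives were DESeq2 1.42.0, other scalings and filters, the 6 libraries alone and leaving out each library. Promoters came from RefSeq (GRCm38.p6). Some listed genes are not reported here.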

Additional observations from a re-analysis of the deposited data

Results flagged for a closer look

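The 24 genes that rose or fell furthest were compared between tumor lines and between organs, and those whose difference passed edgeR's test are given here as log2 differences. Against 4T07 spleens 4 of the 24 passed: Stfa2 1.83, Stfa3 1.67, Lipg 1.65, Lmo7 -2.22, so that the 3 named stefin and lipase genes were higher with 4T1 and Lmo7 was lower. With DESeq2 Stfa2 (adjusted p = 0.237) and Stfa3 (adjusted p = 0.156) did not pass. Against 67NR spleens all 24 passed, an outcome largely set by choosing them on the same 4T1 libraries against control. The higher ones were Ctsg 7.71, Prtn3 7.34, Cstdc5 7.52, Stfa2 8.50, Cd177 6.20, Stfa3 7.50, Mpo 5.85, Prss57 6.15, Lipg 7.44, Elane 5.96, Ms4a3 6.12, Lcn2 5.72. The lower ones were Ubd -1.94, Gm25008 -4.55, Lmo7 -2.55, Gm28693 -2.91, Gm43287 -3.21, Pcdh9 -2.33, Gm43023 -2.997, Angptl1 -1.53, Snord55 -0.86, Klk8 -1.53, Rpl21-ps6 -2.74, St18 -2.05. No 67NR library held more than 3 counts of Stfa2 or Lipg, so the size of those 2 differences rests on very few reads. The 4T1 minus control difference in spleen departed from that in lung, by the interaction term, for 11 of the 24, with spleen minus lung values of Lipg 5.86, Lcn2 3.71, Gm25008 -2.21, Lmo7 -2.64, Gm28693 -2.23, Gm43287 -2.31, Pcdh9 -1.74, Gm43023 -2.65, Klk8 -2.0, Rpl21-ps6 -2.02, St18 -3.16. Gm25008 did not pass in 5 of the runs that left out 1 library, down to -0.99 (adjusted p = 0.394) without the third control spleen. Gm43287 did not pass without the second 4T1 lung (-1.74, adjusted p = 0.155), nor Rpl21-ps6 without the third control spleen (-1.34, adjusted p = 0.128). Groups of 3 libraries are too small for a test of single outlying libraries, and no measurement was left outside the comparisons.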

How the results depend on the processing

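No paired analysis was possible because the labels give the spleens no shared replicate numbers. The count of 4058 called genes (2021 higher, 2037 lower) became 3617 with DESeq2. Requiring at least 10 counts in each library left 11422 genes tested and 2176 calls, 1117 higher and 1059 lower. Of these calls 1876 were also calls of the main fit, and some genes that were still tested, such as Cxcr4, lost their call. Scaling by library totals gave 3249 lower. Leaving out both pancreas-rich libraries, an alternative chosen after seeing the data, gave 1235 lower. Leaving out 1 library gave 3294 to 4389 calls in all, 1731 to 2224 higher and 1557 to 2225 lower. The lowest of these counts came without the first 4T1 library (1557 lower) and without the third (1731 higher). Of 24 named genes 4 differed from 4T07 by edgeR and 2 by DESeq2, and all 24 differed from 67NR in each alternative run. The 5414 genes that differed between spleen and lung became 4069 to 5844 with 1 library left out.

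Of 2742 recomputed values for single genes against control, 2528 kept direction and side of the rule, 206 no longer passed and 8 changed sign. Dhx9 went to -0.073 at 10 counts in each library, -0.18 without both pancreas-rich libraries, -0.20 with library totals, -0.13 without the third 4T1 library, and -0.011 and -0.11 without the second or the third control library, against 0.29 without the first. Ndufs1 went to -0.10 with library totals and Soga1 to 0.14 without the third control library and -0.46 without the first. None of these 3 genes had passed. Prss57 relative to 4T07 went to -0.0084 with DESeq2, -0.0065 with its size factors and -0.067 with library totals. For the spleen minus lung difference, Mpo went to -0.013 with DESeq2 and -0.18 with library totals, and to -0.49, -0.14, -0.13, -0.086 and -0.080 when 1 library was left out, with 0.54 without the third control lung as the highest, and Prss57 went from -0.78 without the third control lung to 1.46 without the first 4T1 lung. The cause was not tested. With 3 libraries per group of this depth, genes under 1 CPM rest on a few counts per library.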

Other observations

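Of 16 tested circadian clock genes 3 fell and 1 rose, by edgeR's quasi-likelihood test, and 4 fell and none rose with library totals. Over all genes 11.0% were called lower and 10.9% higher. Clock, a core activator of the daily rhythm, was at 96.5, 88.8 and 83.7 CPM in the control spleens and 32.8, 36.5 and 30.2 CPM in the 4T1 spleens, and fell by 1.19 log2 units (SE 0.15, adjusted p = 3.43e-05). The repressors Nr1d2 and Bhlhe41 fell by 1.16 log2 units (SE 0.27, adjusted p = 0.00426) and by 1.52 log2 units (SE 0.34, adjusted p = 0.00295), and the output factor Hlf, which also marks blood stem cells, was at 3.11, 3.46 and 3.88 CPM in the control spleens and 8.63, 3.43 and 6.85 CPM in the 4T1 spleens, and rose by 1.11 log2 units (SE 0.36, adjusted p = 0.0294). Nr1d2 missed the rule without the first 4T1 library (-0.92). Hlf missed the rule at 10 counts in each library (0.98), with library totals (0.85) and without the 2 libraries rich in pancreas transcripts (adjusted p = 0.174) or the first 4T1 library (0.82). Times of tissue collection are not in the labels, so their part in these values was not tested.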
